A study of Mus musculus with 6 samples.

Results

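The 10 genes described here are the Notch receptors Notch1, Notch2, Notch3 and Notch4, the ligands Jag1 and Jag2, and the target genes Hes1, Hey1, Hey2 and Heyl. They were chosen by gene name from a table of 41721 genes, and each name had a single row. The libraries came from smooth muscle cells of the mouse abdominal aorta (MASMCs), 3 libraries from Pdk4fl/fl mice and 3 from Pdk4SMKO mice, all from animals aged 10 weeks. Pdk4 encodes a pyruvate dehydrogenase kinase, which restrains the entry of pyruvate into the mitochondrial citric acid cycle. Both genotypes carried loxP-flanked Pdk4 alleles and both were given tamoxifen according to the methods of the study. The Pdk4SMKO mice carried in addition a Myh11-Cre transgene, which lies on the Y chromosome and is driven by the promoter of a smooth muscle myosin gene. All cells were treated with angiotensin II (Ang II), at 1 μM for 48 h according to the methods, so that no library shows the untreated state. The comparison sets the transcripts of Ang II-treated MASMCs from Pdk4SMKO mice beside those from Pdk4fl/fl mice. As described below, the genotypes also differed in Xist and in markers of other cell types. The effect of the loss of Pdk4 cannot be told apart from these differences.

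Notch receptors are membrane proteins that read contact with a neighbouring cell. A JAG or Delta ligand on that neighbour pulls on the receptor, proteases cut it outside and then inside the membrane, and the freed intracellular domain joins the DNA-binding protein RBPJ to switch on HES and HEY genes, which encode repressors of transcription. In the arterial wall, Notch3 is the receptor best known from smooth muscle, Jag1 passes the signal from endothelium to muscle and between muscle cells, and Notch4 is best known from endothelium.

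Several properties of the libraries touch the genes below. Depth was 16526044 to 22481670 counts per library, so that 3 counts, taken as the floor of counting error alone, corresponded to 0.132 to 0.227 CPM, counts scaled to the same library total. Pdk4 itself was at 35.0 ± 3.07 CPM in Pdk4fl/fl and 6.93 ± 2.11 CPM in Pdk4SMKO (SD, n = 3), a log2 fold change of -2.34. Xist, the transcript of the inactive X chromosome of females, had 3, 4 and 5 counts in the Pdk4fl/fl libraries and 610, 347 and 321 in the Pdk4SMKO libraries, whereas the methods describe male mice for the knockout. All 3 Pdk4SMKO libraries shared this difference, so that it and the genotype cannot be told apart. The genotypes also differed in markers of other cell types. The counts of markers below stand beside 32.8% of all tested genes called higher in Pdk4SMKO and 26.5% called lower, under the limits given further on. Of the mesothelial markers, 7 of 7 tested were higher in Pdk4SMKO, with a summed level of 74.2 to 99.99 CPM in Pdk4fl/fl and 723 to 1325 CPM in Pdk4SMKO. Upk3b, Upk1b, Wt1, Krt18 and Lrrn4 passed the filter on low counts through the Pdk4SMKO libraries, so that a difference was built into their being tested. The same held for the fibroblast markers Lum and Cd34 and the smooth muscle markers Myh11 and Des. Msln, with means of 6.43 and 410 CPM, and Krt19, with 79.2 and 279 CPM, passed it in every library. Of the fibroblast markers, 4 of 8 were higher and 1 was lower, and their sum was 145 to 176 CPM against 1326 to 2780 CPM. Most of that sum came from Col14a1, with means of 25.2 and 1740.4 CPM, and Dcn, with 92.7 and 434 CPM, whereas Dpt was called lower and Pdgfra, Pi16 and Scara5 were not called. Of the smooth muscle markers, 6 of 10 were higher and 3 lower, with sums of 973 to 1042 CPM and 1148 to 1367 CPM. The higher sum came mainly from Acta2, with means of 233 and 701 CPM, and Pdgfrb, with 202 and 420 CPM. Tagln, with 253 and 52.7 CPM, Smtn, with 280 and 57.5 CPM, and Cnn1, with 19.5 and 6.88 CPM, were called lower. The part of these differences in the results was not tested. In bulk libraries, fewer cells of a type and less RNA per cell cannot be told apart.

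Under an adjusted p of 0.05 and a change of at least 2-fold (edgeR's quasi-likelihood test, Benjamini-Hochberg adjustment), 59.3% of the 14085 genes tested differed between the genotypes, 32.8% higher in Pdk4SMKO and 26.5% lower. Of the 10 Notch genes 8 could be tested, and of these 6 were called higher, 1 lower and 1 neither way. Without Pdk4fl/fl replicate 3, the count of higher genes was 3 in place of 6. Only 5 of the 10 genes passed the filter on low counts in every library. Notch4, Jag2 and Hey2 passed it through the Pdk4SMKO libraries, so that a difference was built into their being tested, and Hey1 and Heyl did not pass. The receptors Notch2, Notch3 and Notch4 and both JAG ligands were higher in Pdk4SMKO, Notch1 was lower, and among the targets Hey2 was called higher while Hes1, by far the most abundant of them, was not called. Of the 8 tested genes, 6 had no overlap between the genotypes, beside 81.8% of all genes tested. In these 6 every Pdk4SMKO library was above every Pdk4fl/fl library, as in 43.5% of all genes, and the reverse, seen in 38.3% of all genes, held for 0.

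**Figure D1:**
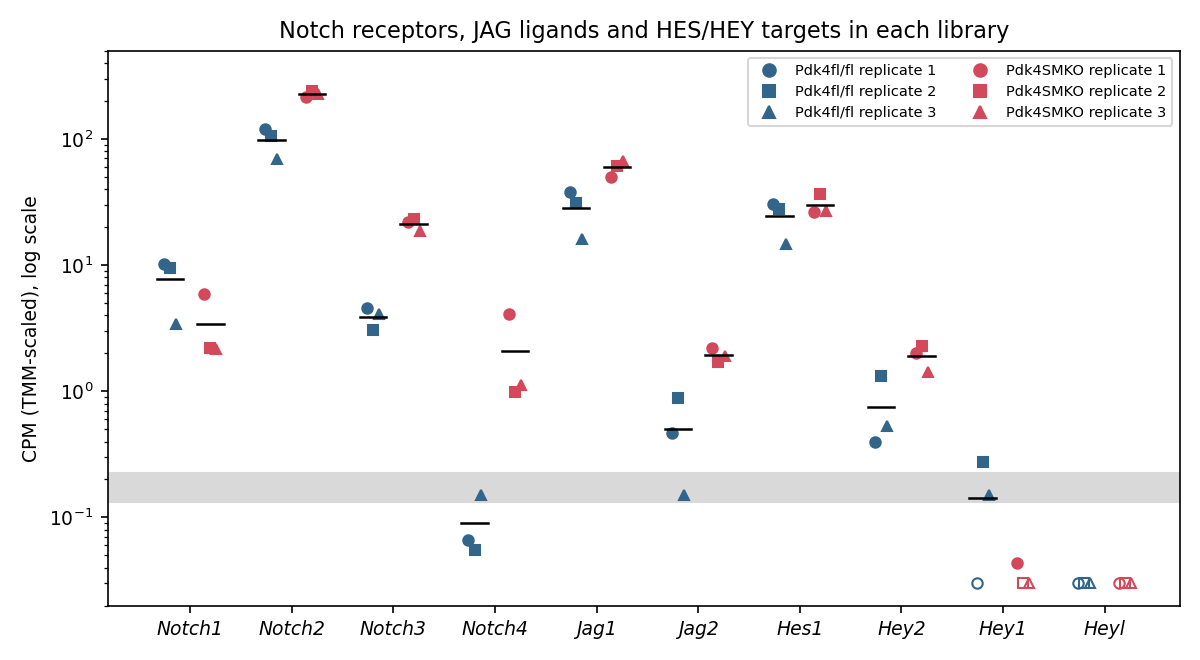
Levels of the 10 Notch genes in each library, as CPM after TMM scaling on a log axis. Symbols mark the replicates, black bars the mean of 3 libraries, the grey band the level of 3 counts, and open symbols at the lower edge libraries with 0 counts. Notch3 stood at 3.07 to 4.53 CPM in Pdk4fl/fl and 18.5 to 23.0 CPM in Pdk4SMKO, while the libraries of both genotypes overlapped for Notch1 and Hes1.

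The regions just upstream of these genes were searched for the core letters bound by RBPJ, GTGGGAA, and for the letters CACGTG, an E-box, each on both strands. The windows ran from 250 bases before to 30 bases after the RefSeq transcription start in GRCm38.p6, and of the 10 genes 7 had a window (not Hes1, Hey1 and Heyl). GTGGGAA or its reverse complement was in 1 of these 7 windows, that of Hey2, and in 5.94% of all 32851 windows. The Hey2 window held it in 2 places, once on the minus strand with its first base 207 bases before the start and once across the start, from 4 bases before it. CACGTG was in 0 of the 7 windows and in 6.79% of all windows. Of the other pathway genes described further on, 60 had a total of 82 windows, 6 with GTGGGAA and 8 with CACGTG. Lfng, the gene with the steepest rise among the enzymes that modify Notch receptors, had both motifs, CACGTG from 112 and GTGGGAA from 109 bases before the start, so that they overlapped. Among the other genes called higher, Psen2 also held both motifs, Spen held GTGGGAA, and Poglut1 and Adam10 held CACGTG. Bhlhe41, which was called lower, held CACGTG. Of the genes not called, Aph1a held GTGGGAA, and Tle3 and Tle4 held CACGTG. Hes5 and Hes7 held GTGGGAA and Nrarp held CACGTG, but these genes were not tested. The window of Hey2 is given as the one among the Notch genes with a match, that of Lfng for its overlapping matches, and that of Notch3 as a receptor well above the floor in all libraries whose window holds neither motif. A match describes letters and shows no binding, and capitals mark the matches.
Hey2 (chr10:30842754-30843033, minus strand): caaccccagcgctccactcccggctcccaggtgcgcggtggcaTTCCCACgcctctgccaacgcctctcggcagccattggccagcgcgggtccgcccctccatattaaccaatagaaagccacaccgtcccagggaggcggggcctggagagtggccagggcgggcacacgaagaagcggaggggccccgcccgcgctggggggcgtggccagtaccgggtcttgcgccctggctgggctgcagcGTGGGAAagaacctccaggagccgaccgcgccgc
Lfng (chr5:140607091-140607370, plus strand): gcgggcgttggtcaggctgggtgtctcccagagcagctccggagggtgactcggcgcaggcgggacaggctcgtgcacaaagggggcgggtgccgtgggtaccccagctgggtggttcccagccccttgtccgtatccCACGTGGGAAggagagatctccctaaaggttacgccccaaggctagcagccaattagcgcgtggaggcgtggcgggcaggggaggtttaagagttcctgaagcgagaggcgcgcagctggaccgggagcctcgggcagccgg
Notch3 (chr17:32166861-32167140, minus strand): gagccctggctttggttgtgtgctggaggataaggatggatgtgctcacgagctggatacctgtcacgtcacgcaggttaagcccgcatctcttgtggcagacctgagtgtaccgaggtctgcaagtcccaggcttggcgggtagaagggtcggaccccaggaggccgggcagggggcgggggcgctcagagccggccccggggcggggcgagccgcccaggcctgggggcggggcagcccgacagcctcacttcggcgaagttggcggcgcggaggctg

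Notch2 was the most abundant receptor in every library. Genes that share the span of a Notch receptor or ligand had at most 33 counts in any library. The Notch2 gene lies at chr3:102666486-102809405 on the plus strand (MGP_C57BL6NJ_G0028065, in the coordinates of the count table, whose identifiers are those of the C57BL/6NJ strain annotation). Its level was 119.7, 105.3 and 69.2 CPM in the Pdk4fl/fl libraries and 214.7, 238.8 and 225.2 CPM in the Pdk4SMKO libraries. Every Pdk4SMKO library lay above every Pdk4fl/fl library, and Pdk4fl/fl replicate 3 was the lowest of the 6. The means were 98.0 ± 26.0 and 226 ± 12.1 CPM (SD, n = 3), and the log2 fold change was 1.21 (SE 0.18, edgeR adjusted p = 0.000151). Without Pdk4fl/fl replicate 3 it was 0.99, just under the 2-fold limit, with an adjusted p of 2.78e-05.

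Notch3, the receptor whose mutations cause the small-vessel disease CADASIL in humans, was at 4.53, 3.07 and 4.09 CPM in Pdk4fl/fl and at 22.0, 23.0 and 18.5 CPM in Pdk4SMKO. The gene lies at chr17:33036321-33085257 on the minus strand (MGP_C57BL6NJ_G0023903). The groups were far apart, and no single library stood out in either of them. Its log2 fold change was 2.45 (SE 0.20, edgeR adjusted p = 1.82e-06) and stayed between 2.30 and 3.05 under the 15 alternatives tried. Unlike Notch1 and Notch2, Notch3 was not low in Pdk4fl/fl replicate 3, which had 1.07 times the mean of the other two libraries.

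Notch4 (chr17:35933788-35982801, plus strand, MGP_C57BL6NJ_G0023982) was at or under the floor in the Pdk4fl/fl libraries, with 1, 1 and 2 counts. The Pdk4SMKO libraries had 94, 20 and 23 counts, or 4.13, 0.995 and 1.13 CPM. Pdk4SMKO replicate 1 thus had 3.89 times the mean of the other two. Against the floor of 3 counts per library, Notch4 was at least 10.6-fold higher in Pdk4SMKO, and the fit gave a log2 fold change of 4.49 with an edgeR adjusted p of 0.000584. Without Pdk4SMKO replicate 1 the bound was 5.38-fold and the fitted value 3.52 (adjusted p = 0.000461). Of 10 markers of endothelium, the cell type best known for Notch4, 3 could be tested and all 3 were lower. Erg, with 48, 47 and 44 counts against 1, 0 and 0, passed the filter on low counts through the Pdk4fl/fl libraries. A difference was thus built into its being tested. The 10 markers summed to 17.4 to 26.3 CPM in Pdk4fl/fl and 2.84 to 5.80 CPM in Pdk4SMKO. Most of this was Kdr, with means of 16.5 and 2.96 CPM. Cdh5 had at most 1 count in a library, and Cldn5 was at 0 in all 6. In Pdk4SMKO replicate 1, Kdr was at 1.91 times the mean of replicates 2 and 3. A link between these markers and Notch4 was not tested.

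Notch1 was the one receptor called lower. The gene lies at chr2:25195421-25267769 on the minus strand (MGP_C57BL6NJ_G0025907). It was at 10.2, 9.55 and 3.41 CPM in Pdk4fl/fl and at 5.88, 2.19 and 2.16 CPM in Pdk4SMKO. The groups overlapped, since Pdk4fl/fl replicate 3 lay below Pdk4SMKO replicate 1. The log2 fold change was -1.18 (SE 0.48, edgeR adjusted p = 0.0432), and the exact two-sided permutation test gave p = 0.2, where 3 libraries against 3 cannot give less than 0.1. The log2 fold change was -1.82 without Pdk4SMKO replicate 1 and -1.53 without Pdk4fl/fl replicate 3, and both were called. The call was lost without Pdk4fl/fl replicate 1 (log2 fold change -0.95, adjusted p = 0.146), without Pdk4fl/fl replicate 2 (-0.99, 0.137), without Pdk4SMKO replicate 2 (-0.93, 0.128) and without Pdk4SMKO replicate 3 (-0.93, 0.131), and also with upper-quartile scaling, with library size alone and with at least 10 counts asked of each library.

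Both libraries that set the spread of Notch1 and Notch4 stood apart in other ways. Pdk4fl/fl replicate 3 had 0.345 times the Notch1, 0.615 times the Notch2, 0.471 times the Jag1, 0.225 times the Jag2 and 0.503 times the Hes1 of the mean of replicates 1 and 2. In that library the median log2 difference from replicates 1 and 2 ran from 0.24 to -0.15 between the shortest and the longest of 5 equal classes of gene length. Pdk4SMKO replicate 1 had 2.71 times the Notch1 of the mean of replicates 2 and 3. Of the macrophage markers, 6 of 7 tested were called higher in Pdk4SMKO and 1 lower. All 8 were 2.24 to 8.40 times as high in that replicate 1 as in the mean of the other two. Their summed level was 38.7 CPM there, 16.2 and 11.8 CPM in replicates 2 and 3, and 21.4 to 38.0 CPM in Pdk4fl/fl. Nearly all of the Pdk4fl/fl sum was Cd68, the marker called lower, at 37.9, 34.5 and 21.3 CPM. In Pdk4fl/fl, Adgre1, C1qa, C1qb, C1qc and Tyrobp had 0 counts, and Csf1r had 2, 4 and 2. These markers, the ones called higher, passed the filter on low counts through the Pdk4SMKO libraries. A difference was thus built into their being tested. Markers of other cell types also differed between Pdk4SMKO replicate 1 and the mean of replicates 2 and 3. The ratio was 1.39 to 2.43 for the mesothelial markers. It was 0.662 (Pdgfrb) to 4.27 (Cnn1) for the smooth muscle markers and 0.118 (Scara5) to 1.44 (Cd34) for the fibroblast markers. The part of these libraries' properties in the receptor values was not tested. With both libraries left out, an alternative chosen after the data were seen, 5 of the Notch genes were called higher and 1 lower.

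The balance of the receptors inside a library does not depend on how the libraries are scaled against each other. Per length, that is as CPM divided by the length of the gene's transcripts in kilobases, the 4 receptors summed to 10.1 ± 2.67 CPM per kb in Pdk4fl/fl and 24.1 ± 1.02 CPM per kb in Pdk4SMKO (SD, n = 3, a 2.38-fold ratio, exact permutation p = 0.1). Notch2 made up 89.7% ± 0.445 of this sum in Pdk4fl/fl and 87.0% ± 2.29 in Pdk4SMKO, a difference of -2.69 percentage points that was -1.43 without Pdk4SMKO replicate 1 and became 0.016 without division by length. Notch1 and Notch3 had shares within each other's spread in Pdk4fl/fl, at 5.10% ± 1.55 and 5.05% ± 1.82. In Pdk4SMKO, Notch3 made up 10.9% ± 0.962 and Notch1 1.00% ± 0.651. Neither share overlapped between the genotypes, and each gave p = 0.1, the smallest p the exact test allows. In single libraries, Notch3 ranged from 3.53% to 7.07% against 9.79% to 11.6% and Notch1 from 3.33% to 6.20% against 0.608% to 1.75%. The order below Notch2 was thus Notch1 and Notch3 together, then Notch4, in Pdk4fl/fl, and Notch3 above Notch1 and Notch4 in Pdk4SMKO, where Notch4 had 0.487% to 2.17% and could not be separated from Notch1.

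**Figure D2:**
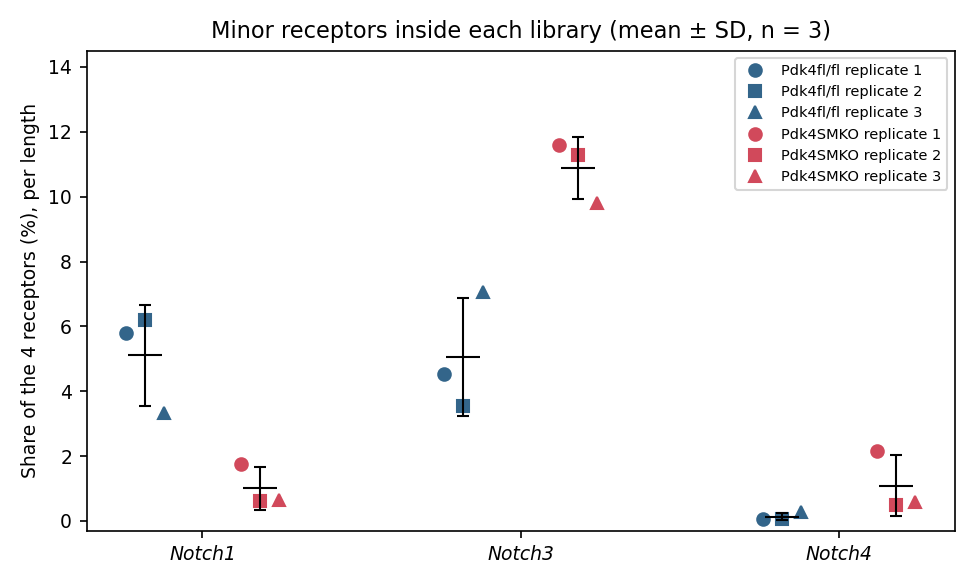
Shares of Notch1, Notch3 and Notch4 in the summed per-length level of the 4 receptors, in percent, for each library, with the mean and SD of 3 libraries in black. Notch1 had a mean share of 5.10% in Pdk4fl/fl and 1.00% in Pdk4SMKO, and Notch3 had a mean share of 5.05% in Pdk4fl/fl and 10.9% in Pdk4SMKO, with no overlap between the genotypes for either gene.

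Jag1, the ligand that smooth muscle cells present to one another, was at 37.7, 31.1 and 16.2 CPM in Pdk4fl/fl and at 49.8, 61.4 and 67.4 CPM in Pdk4SMKO. The gene lies at chr2:145099632-145140130 on the minus strand (MGP_C57BL6NJ_G0026983). All Pdk4SMKO libraries were above all Pdk4fl/fl libraries, of which replicate 3 was again the lowest. The log2 fold change was 1.07 (SE 0.26, edgeR adjusted p = 0.00348), close to the 2-fold limit. It was 0.78 without Pdk4fl/fl replicate 3 and 0.98 without Pdk4SMKO replicate 3, both under that limit with adjusted p of 0.00128 and 0.0126. Of 70 pathway genes compared, the one nearest to Notch2 in its pattern over the 6 libraries was Jag1, with a root-mean-square difference of 0.17 in centred log2 CPM.

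Jag2 (chr12:118944031-118964936, minus strand, MGP_C57BL6NJ_G0020550) was a minor ligand in these cells. It had 7, 16 and 2 counts in Pdk4fl/fl and 50, 34 and 39 counts in Pdk4SMKO, or 0.499 ± 0.365 and 1.93 ± 0.252 CPM (SD, n = 3). The groups did not overlap. The log2 fold change was 1.88 (SE 0.49, edgeR adjusted p = 0.00529), and 2.60 without Pdk4fl/fl replicate 2, which had the most Jag2 of its group. Per length, Jag2 was 2.32% ± 1.38 of the summed JAG ligands in Pdk4fl/fl and 4.56% ± 1.21 in Pdk4SMKO, and these shares overlapped (exact permutation p = 0.2). Together the ligands stood at 4.98 ± 1.95 and 10.7 ± 1.49 CPM per kb, a 2.15-fold ratio (exact permutation p = 0.1).

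Hes1, the commonest readout of Notch signalling, was at 30.5, 27.9 and 14.7 CPM in Pdk4fl/fl and at 26.2, 36.5 and 27.0 CPM in Pdk4SMKO. The gene lies at chr16:28531575-28534987 on the plus strand (MGP_C57BL6NJ_G0023124). The libraries of both genotypes were interleaved, apart from the low Pdk4fl/fl replicate 3. Its log2 fold change of 0.29 (SE 0.25, edgeR adjusted p = 0.308) was not called, nor was it under any of the 15 alternatives, where it ran from 0.02 to 0.89. The exact permutation test gave p = 0.6. This does not show that Hes1 was equal in both genotypes, and with library size alone as scaling its log2 fold change of 0.89 had an adjusted p of 0.0108 and missed the 2-fold limit alone.

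Hey2 (chr10:29918729-29929169, minus strand, MGP_C57BL6NJ_G0017517) encodes the HEY repressor known from arterial cells. It had 6, 24 and 7 counts in Pdk4fl/fl and 46, 46 and 29 counts in Pdk4SMKO, or 0.749 ± 0.497 and 1.91 ± 0.443 CPM (SD, n = 3). The groups did not overlap, although Pdk4fl/fl replicate 2, at 1.32 CPM, came close to the lowest Pdk4SMKO library, at 1.42 CPM. The log2 fold change was 1.30 (SE 0.47, edgeR adjusted p = 0.0263). The call was lost without Pdk4fl/fl replicate 1 (log2 fold change 0.99, adjusted p = 0.099), without Pdk4fl/fl replicate 3 (1.10, 0.0779) and without Pdk4SMKO replicate 2 (1.17, 0.0835), whereas without Pdk4fl/fl replicate 2 the log2 fold change was 2.04. Tle2, a corepressor, was the gene nearest to Hey2 in pattern, with a root-mean-square difference of 0.26 in centred log2 CPM.

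Hey1 (chr3:6096585-6100482, minus strand, MGP_C57BL6NJ_G0027470) had 0, 5 and 2 counts in Pdk4fl/fl and 1, 0 and 0 in Pdk4SMKO, and was not tested. Heyl (chr4:129476988-129493288, plus strand, MGP_C57BL6NJ_G0029161) had 0 counts in all 6 libraries, which at this depth allows up to 0.132 to 0.227 CPM. Nrarp, a feedback inhibitor that Notch itself switches on, had 0 counts in every Pdk4fl/fl library and 8, 19 and 3 in the Pdk4SMKO libraries, of which the last was itself at the floor. Its counts were too low for the test. Per length, the HES and HEY genes together stood at 12.3 ± 4.21 CPM per kb in Pdk4fl/fl and 15.4 ± 2.94 CPM per kb in Pdk4SMKO (exact permutation p = 0.6). Hes1 held 97.1% ± 1.64 and 95.1% ± 0.932 of these sums, and Hey2 2.48% ± 1.31 and 4.87% ± 0.880.

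**Figure D3:**
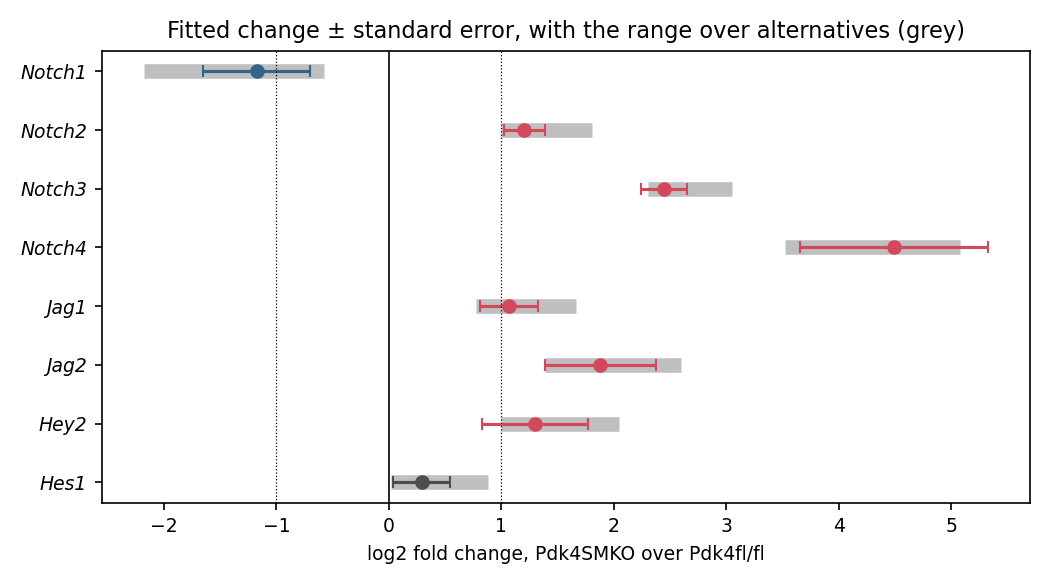
Log2 fold change of Pdk4SMKO over Pdk4fl/fl for the 8 Notch genes tested, with the standard error of the edgeR fit as bars and the range over the alternatives in grey. Dotted lines mark 2-fold in each direction. Notch3 ran from 2.30 to 3.05 over the alternatives, whereas Notch1, at -1.18, reached -0.58 and Jag1 reached 0.78.

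The genes that act around the receptors were taken as 6 lists of 76 genes, 75 of which had a row. Rbpj was the exception and was not analysed here. Of the 63 tested, 22 were higher in Pdk4SMKO, 13 lower and 28 not called, a median log2 fold change of 0.29 beside 0.12 over all genes. As shares these were 34.9% higher and 20.6% lower, near the 32.8% and 26.5% of all genes. The counts of each list below stand beside the same shares of all genes. The lists are described in the order in which a receptor meets their products.

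Among the other ligands, 4 of 6 tested were higher and 1 was lower. Mfap5, a microfibril protein that binds Notch1 and Jag1, had 1, 1 and 1 counts in Pdk4fl/fl and 561, 448 and 434 in Pdk4SMKO, at least 115-fold higher against the floor. Its relative Mfap2 went the other way, from 21.2 ± 3.83 to 0.896 ± 0.388 CPM (log2 fold change -4.56, SE 0.29, edgeR adjusted p = 3.3e-07). Dlk1, a ligand-like protein without the domain that activates the receptor, was at 0.297 ± 0.0603 and 9.02 ± 4.71 CPM (log2 fold change 4.88). Mfap5 and Dlk1 passed the filter on low counts through the Pdk4SMKO libraries, so that a difference was built into their being tested. Of the Delta ligands, Dll1 had 28, 33 and 20 counts against 66, 300 and 150, with no overlap but a wide spread in Pdk4SMKO (log2 fold change 2.26, SE 0.52, edgeR adjusted p = 0.0024, and 1.57 without Pdk4SMKO replicate 2). Dll4, the Delta ligand of arterial endothelium, had 7, 13 and 0 counts against 1, 2 and 0 and was not tested, and a transcript on the opposite strand of the same span had nearly as many counts.

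The enzymes that put sugars on the receptor or mature it were higher or not called, in 7 and 4 of the 11 tested, and none was called lower. The share called was 63.6%, all of it higher, beside 59.3% of all genes, with 32.8% higher and 26.5% lower. Lfng, whose product elongates O-fucose on the receptor and changes which ligands it answers to, had 7, 9 and 9 counts in Pdk4fl/fl and 498, 590 and 500 in Pdk4SMKO. Its levels were 0.547 ± 0.117 and 25.3 ± 3.80 CPM, a log2 fold change of 5.53 (SE 0.25, edgeR adjusted p = 4e-08). Like Notch4, Lfng passed the filter on low counts through the Pdk4SMKO libraries, so that a difference was built into its being tested. Poglut1, which adds O-glucose, was at 5.96 ± 1.19 and 60.4 ± 3.15 CPM (log2 fold change 3.35), and Eogt, which adds O-linked N-acetylglucosamine, at 6.05 ± 2.02 and 36.4 ± 3.83 CPM (2.60). Pofut1, the fucosyltransferase whose product Lfng extends, was at 15.4 ± 3.41 and 53.7 ± 3.07 CPM (1.80). Pofut1 was singled out after its values were seen. Furin, the convertase that cleaves the receptor on its way to the surface, was not called, at 67.5 ± 24.7 and 87.7 ± 14.3 CPM, and was the gene nearest to Hes1 in pattern, with a root-mean-square difference of 0.14 in centred log2 CPM.

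The proteases differed in both directions, with 3 of 9 called higher and 2 lower. Adam10, the sheddase that makes the ligand-dependent cut, was at 49.1 ± 3.33 CPM in Pdk4fl/fl and 232 ± 10.9 CPM in Pdk4SMKO (SD, n = 3), a log2 fold change of 2.24 (SE 0.12, edgeR adjusted p = 8.72e-08). Adam17, a sheddase tied to ligand-independent cleavage, was at 300.5 ± 17.9 and 76.8 ± 7.29 CPM, a log2 fold change of -1.97. Per length, the ratio of Adam10 to Adam17 inside a library was 0.233, 0.261 and 0.222 in Pdk4fl/fl and 3.95, 4.90 and 4.42 in Pdk4SMKO. The more abundant sheddase transcript was therefore Adam17 in each Pdk4fl/fl library and Adam10 in each Pdk4SMKO library, a comparison chosen after the values of both genes were seen. Adam17 shares its span with Iah1 on the opposite strand, whose counts came to 8.46% to 14.7% of those of Adam17 in the Pdk4fl/fl libraries and to 32.6% to 49.6% in the Pdk4SMKO libraries.

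The γ-secretase, the complex that makes the cut inside the membrane, was split in the same way. Its subunit Ncstn was at 41.6 ± 2.91 and 200.2 ± 10.8 CPM (log2 fold change 2.27, SE 0.12, edgeR adjusted p = 8.89e-08), and it was the gene nearest in pattern to Notch3 and to Notch4, with root-mean-square differences of 0.14 and 0.53 in centred log2 CPM. Psenen, the smallest subunit, was at 77.8 ± 26.6 and 15.3 ± 1.08 CPM (log2 fold change -2.34). Psen2, a catalytic subunit named after its values were seen, was called higher at 4.41 ± 1.26 and 17.8 ± 0.238 CPM. The span of Ncstn overlaps that of Copa on the opposite strand, which had 4.11 times its counts, and the span of Psenen overlaps that of Lin37 on the same strand. Aph1b and Aph1c, of the same complex, are near-identical copies whose counts are uncertain.

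Genes that tag ligands or receptors with ubiquitin or steer their endocytosis included 4 higher, 3 lower and 6 not called. Numb, which holds Notch signalling down in one daughter of an asymmetric division, was at 159.9 ± 11.9 and 33.4 ± 1.10 CPM (log2 fold change -2.26), and Neurl3, of a ligase family that acts on ligands, at 7.84 ± 1.06 and 0.703 ± 0.197 CPM (-3.46). Fbxw7, which marks the freed intracellular domain for degradation, was at 3.68 ± 1.61 and 15.6 ± 0.211 CPM (2.07). The edgeR adjusted p of these genes was 8.89e-08, 2.55e-06 and 5.99e-05. Dtx2, of the Deltex family, was the gene nearest in pattern to Notch1, though with a root-mean-square difference of 0.52 in centred log2 CPM.

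In the nucleus, 13 of 21 coactivator and corepressor genes were not called, 3 were higher and 5 lower. The corepressor Tle1, which HES proteins recruit, was at 7.35 ± 0.329 and 79.3 ± 5.53 CPM (log2 fold change 3.43, edgeR adjusted p = 2.1e-08). Spen, the scaffold that holds RBPJ in its repressing state, was at 15.4 ± 6.24 and 83.2 ± 9.23 CPM (2.43), and the histone demethylase Kdm1a at 313 ± 10.7 and 56.6 ± 2.78 CPM (-2.47). Spen and Kdm1a share their spans with Zbtb17 and Luzp1 on the opposite strand, and since the use of strand in the counting is not given in the sources used here, reads of such pairs cannot be told apart. The last list, of 8 genes, held other Hes genes together with Helt, Bhlhe40 and Bhlhe41. Of these 8 genes 3 were tested, and Hes6 was the only Hes gene among them. Bhlhe41 was at 36.0 ± 5.19 and 5.23 ± 3.39 CPM (log2 fold change -2.77, and -3.44 without Pdk4SMKO replicate 1) and Bhlhe40 at 286 ± 52.9 and 107 ± 11.7 CPM (-1.41), both repressors that also act in the circadian clock. Hes6, which encodes an inhibitor of HES1, was at 8.21 ± 2.46 and 31.8 ± 4.07 CPM (1.96). Hes5 and Helt were at 0 counts in every library.

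**Figure D4:**
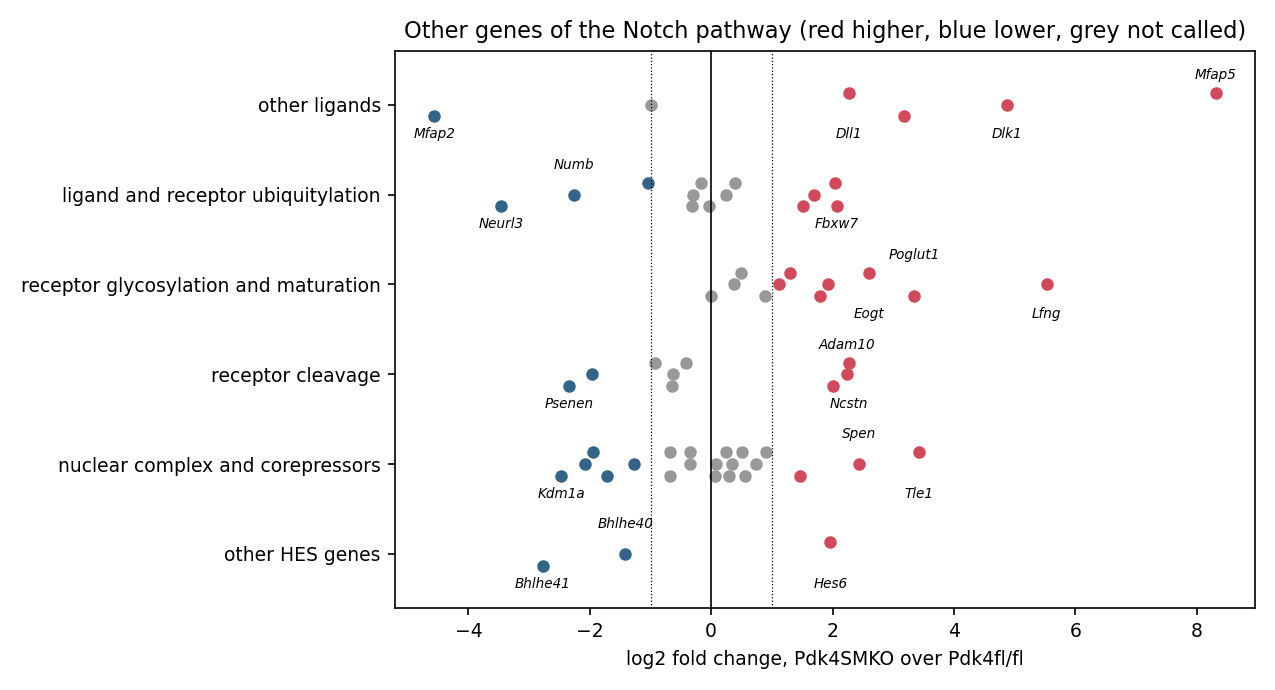
Log2 fold change of Pdk4SMKO over Pdk4fl/fl for the 63 tested genes of the 6 other Notch pathway lists, 1 row per list and 1 point per gene. Points are red where called higher, blue where called lower and grey where not called, dotted lines mark 2-fold, and the genes named by the rule are labelled. The row of glycosylation and maturation enzymes has 7 red points, from Lfng at 5.53 down, and 0 blue ones, whereas the other rows hold both colours. Of all genes tested, 32.8% were called higher and 26.5% lower.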

How the data were processed

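Messenger RNA was sequenced from 6 libraries of Ang II-treated MASMCs, 3 per genotype as the labels give it, in 150-bp paired-end reads according to the study's methods. As library kit the methods give NEBNext Ultra but the labels SMARTER. What the authors deposited was 1 table of raw counts per gene, not normalized. The submitters' processing notes name the build GRCm39, whereas 41096 gene identifiers are those of the C57BL/6NJ strain annotation and 625 are others. The aligner, the counting program and the use of strand are not given in the sources used here. The study calls the replicates biological, but neither it nor the labels say whether each came from its own mouse or culture, and p-values measure the spread between these libraries. No pair of libraries agreed within sampling noise.

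The main fit used edgeR 4.0.16 (under R 4.3.3 and limma 3.58.1), with DESeq2 1.42.0 as an alternative. Low counts were removed by filterByExpr (a minimum of 10 counts at the median library, or 0.575 CPM, in 3 libraries), then the libraries were scaled by TMM and genotype was tested by quasi-likelihood, adjusting p over all 14085 genes. Calls needed an adjusted p below 0.05 together with a change of 2-fold or more. TMM factors were 0.784 to 0.838 in Pdk4fl/fl and 1.21 to 1.26 in Pdk4SMKO. CPM values are counts divided by the TMM-scaled library totals. A fold against a genotype whose libraries were all at or under 3 counts is a bound against 3 counts in each library. Exact permutation tests (two-sided) served for single values. Pattern likeness used log2(CPM + 0.5), centred for each gene. The fit was also run on simulated data, in which few genes changed and equally in both directions. In these data 59.3% of the tested genes were called, so that run cannot show how the scaling performs here.

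The Notch genes, the pathway and marker lists and the rule for naming genes were chosen with earlier results of these data known. By that rule all 10 Notch genes and Pdk4 are given. From each pathway list it takes up to 3 called genes without overlap and with 5 CPM or more on average in the higher genotype, by the size of their change, and it adds Dll1, Dll4, Rbpj, Nrarp and Lfng and the gene nearest in pattern to each Notch gene, 1 of which is not reported here. Kdelc1 and Kdelc2 were read as Poglut2 and Poglut3, and a row without a name, described as Mastermind-like protein 2, as Maml2. Promoter windows came from a RefSeq table on GRCm38.p6. Alternatives were RLE, upper-quartile and no scaling, DESeq2, other filters and thresholds, a replicate block, protein-coding genes alone and leaving out each library.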

Additional observations from a re-analysis of the deposited data

How the results depend on the processing

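The median log2 fold change of all genes was 0.12 with TMM, 0.33 with upper-quartile scaling and 0.72 with library size alone, where 6184 genes were higher and 2390 lower in place of 4616 and 3733. Levels of the rarer genes rest on few counts, and genes near 3 counts cannot be compared. Notch3, Notch4 and Jag2 kept their calls under every alternative of scaling, tool, filter, block and libraries that could test them (Jag2, at 1.88, was under a 4-fold limit), and Hes1 was never called. Where each library had to reach 10 counts, Notch4, Jag2 and Hey2 could not be tested. Same-numbered libraries had correlations of 0.048, 0.095 and 0.23 in their deviations, so the numbers were not taken as pairs, and not every library correlated best with its own number. A replicate block left 6 Notch genes higher and 1 lower, a median of 1.33 and 22 and 13 pathway genes called.

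No Notch gene was called lower with upper-quartile scaling (0 genes; Notch1 -0.96, adjusted p = 0.0927), with library size alone (0; -0.58, 0.303) or where each library had to reach 10 counts (0; -1.08, 0.0587), where 3 of 5 were called higher. With library size alone the medians were 1.85 over the Notch genes and 0.90 over the pathway lists. A 4-fold limit left 2 Notch genes higher and 0 lower, and 14 and 7 pathway genes, while without a fold limit 29 pathway genes were higher and 21 lower. The share of Notch2 among the receptors, 2.69 percentage points lower per length in Pdk4SMKO (-2.69), changed sign to 0.016 without division by length. Leaving out 1 library at a time gave 3 to 6 Notch genes higher, 0 to 1 lower, a median of 1.05 to 1.65, and log2 fold changes of -1.82 to -0.93 for Notch1, 0.99 to 1.36 for Notch2, 0.78 to 1.31 for Jag1 and 0.99 to 2.04 for Hey2. Without both Pdk4fl/fl replicate 3 and Pdk4SMKO replicate 1, Jag1 was at 0.91 and Notch1 at -2.18. Of the 19 named pathway genes followed through the alternatives, Bhlhe40 lost its call with library size alone (-0.82), and Bhlhe40 and Hes6 were under the 4-fold limit. Pofut1, Adam17 and Dtx2, called in the main fit but not followed in this way, were also under that limit. Beyond these the cause of each change was not tested.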
